A study of Ovis aries with 23 samples.

Results

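The genes described here are LHB, FSHB and POMC, 3 of the 25197 genes counted in the ovine pars tuberalis (PT). They were chosen by name, and earlier results of these data were known when they were chosen. Their identifiers came through the study's tables of differentially expressed genes and of its heatmap, so a place in those tables was needed. Those tables also cover other times on each photoperiod, and the comparisons for which they list the 3 genes are not given here. No other threshold on a measured value was set. LHB (ENSOARG00000012583) and FSHB (ENSOARG00000015425) encode the beta subunits of luteinizing hormone and follicle-stimulating hormone, and POMC (ENSOARG00000018247) encodes proopiomelanocortin. All 3 were detected in each of the 23 samples and passed the filter on low counts in every comparison.

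LH and FSH are made by gonadotrophs. Each is a dimer of its own beta subunit with a shared alpha subunit, CGA, which is also the alpha subunit of thyroid-stimulating hormone in thyrotrophs. GnRH acts on gonadotrophs through its receptor GNRHR, activins raise FSHB, and follistatin (FST) binds activins. Steroids of the testis restrain both hormones in an intact male. POMC is a precursor that corticotrophs cleave with PCSK1 to give ACTH. Melanotrophs of the pars intermedia cleave it further with PCSK2. TBX19 is the transcription factor of both POMC cell types, and PAX7 is that of melanotrophs. The PT is known for its melatonin-responsive thyrotrophs. In a screen with antibodies to the main endocrine cell types of the pars distalis, the study reported only the shared alpha subunit in the PT. It also reported the beta subunit of thyroid-stimulating hormone in PT cells with the alpha subunit on long photoperiods, and none detected on short photoperiods. Earlier work that it cites had reported gonadotrophs there. That screen was of protein. The cells that gave rise to the LHB, FSHB and POMC reads, in the PT or in adjoining pituitary, were not identified here.

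The PT was taken from neutered (castrate) male Scottish blackface sheep, so no group had testicular feedback. The tissue blocks collected also included hypothalamus and pituitary. Sheep were kept on short photoperiods (SPs, 5 samples) or were moved to long photoperiods (LPs) for 1, 7, or 28 days (6 samples each). RNA-seq counts were expressed as CPM, the count scaled to library size, with edgeR's TMM factors over all 23 samples. The tissue is a mixture of cells, so fewer cells of a type and less RNA per cell cannot be told apart. The labels do not state that each sample is a separate animal, and p-values measure the spread between these samples.

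Total counts ranged from 307952 in LP day 1 sample 4 to 4413929, with a median of 3332320 and a next lowest total of 1852503. LHB had at least 2494 counts in a sample, FSHB at least 324, and POMC at least 848. Counting error was therefore at most 2.00% of the value for LHB, 5.56% for FSHB, and 3.43% for POMC. LP day 1 samples 3 and 4 were more alike than any other pair of samples of one group, with a chi-square per gene of 1.14 (1 is counting noise alone). This value falls with depth, and the other pairs with the shallow sample 4 ranged from 1.75 to 7.15, compared with at least 4.52 for pairs without it. The 2 samples were kept as labeled. Whether they came from separate animals was not settled, and values without them are given where they bear on a result. The PT thyrotroph markers TSHB, CGA, EYA3, and CHGA were detected in every sample, whereas MTNR1A was at 0 in 1 sample and TAC1 in 3. PRL, the prolactin gene of pars distalis lactotrophs, took 2.35% to 21.0% of the counts of a sample.

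LHB was expressed at 6267, 4003, 4708, 4690, and 3735 CPM in SP samples 1 to 5. At LP day 1 it ranged from 1550 to 8829 CPM (median 4739), at LP day 7 from 1957 to 5767 CPM (median 2873), and at LP day 28 from 2253 to 4237 CPM (median 3788). Samples of SPs and of LP day 28 were each close to one another, while LP day 1 held both the lowest and the highest sample of the series, samples 5 and 3. Group means were 4680 ± 984 CPM on SPs (SD, n = 5), 5085 ± 2706 CPM at LP day 1 (n = 6), 3183 ± 1348 CPM at LP day 7 (n = 6), and 3569 ± 708 CPM at LP day 28 (n = 6). The order of means was LP day 1, SPs, LP day 28, and LP day 7. Neighbors in it overlapped, and no difference between them passed the edgeR test given below.

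FSHB was expressed at 851, 479, 407, 534, and 645 CPM in SP samples 1 to 5. It ranged from 146 to 1026 CPM at LP day 1 (median 644), from 337 to 699 CPM at LP day 7 (median 402), and from 204 to 631 CPM at LP day 28 (median 308). As for LHB, LP day 1 samples 5 and 3 were the lowest and highest of the series. Means were 583 ± 173 CPM on SPs (SD, n = 5), 639 ± 341 CPM at LP day 1 (n = 6), 435 ± 135 CPM at LP day 7 (n = 6), and 346 ± 154 CPM at LP day 28 (n = 6). Their order was LP day 1, SPs, LP day 7, and LP day 28, again with neighbors that overlapped and no difference that passed the edgeR test.

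POMC was expressed at 4588, 5761, 2556, 6661, and 759 CPM in SP samples 1 to 5. It ranged from 2416 to 9063 CPM at LP day 1 (median 3096), from 2038 to 5316 CPM at LP day 7 (median 4287), and from 2523 to 4731 CPM at LP day 28 (median 3911). The lowest sample of the series was SP sample 5 and the highest was LP day 1 sample 5, an 11.9-fold range compared with 5.70-fold for LHB and 7.04-fold for FSHB. Means were nearly level, with 4065 ± 2403 CPM on SPs (SD, n = 5), 4240 ± 2578 CPM at LP day 1 (n = 6), 3955 ± 1197 CPM at LP day 7 (n = 6), and 3841 ± 765 CPM at LP day 28 (n = 6). The group medians stood in another order from the means, with LP day 1 lowest.

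**Figure D1:**
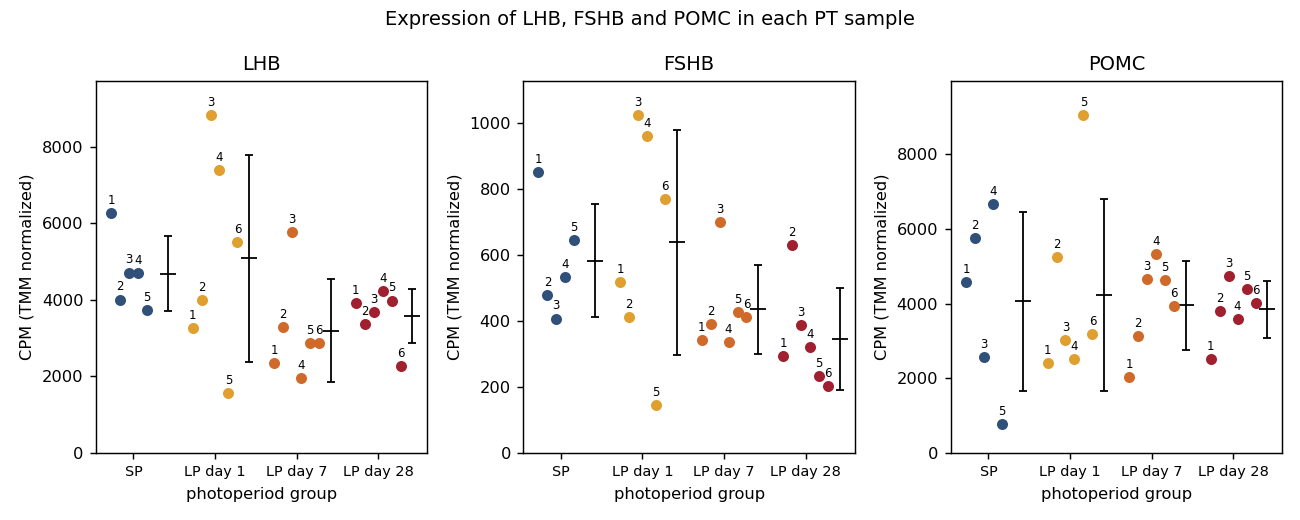
CPM (TMM normalized, linear axis from 0) of LHB, FSHB and POMC in each of the 23 PT samples, with sample numbers beside the points and the mean ± SD of each group to its right. LHB and FSHB share their lowest and highest samples, LP day 1 samples 5 and 3, whereas POMC is highest in LP day 1 sample 5 and lowest in SP sample 5.

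Most of the variation lay between samples of one group. Photoperiod groups accounted for 18.3% of the variance of log2 CPM for LHB, 21.6% for FSHB, and 1.82% for POMC, compared with 13.8% in the median gene. The biological coefficient of variation, edgeR's estimate of the spread within groups, was 0.338 for LHB, 0.375 for FSHB, and 0.416 for POMC. These values stood above those of 81.5%, 85.6%, and 89.1% of the 15653 genes, whose median was 0.198. CGA varied less, at 0.224, and PRL more, at 0.572.

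Each pair of groups was compared by edgeR's quasi-likelihood test over all genes, and a gene was differentially expressed (DE) if its Benjamini-Hochberg adjusted p, the false discovery rate (FDR), was under 0.05. None of the 3 genes was DE in any of the 6 comparisons, in which 0% to 0.67% of the genes tested were DE, and the groups overlapped for each gene in each comparison. The 3 SP comparisons share the SP samples, and the LP comparisons share LP samples, so the comparisons are not independent. An unadjusted p under 0.05 was found for LHB and FSHB at LP days 7 and 28 against SPs, for LHB between LP days 1 and 7, and for FSHB between LP days 1 and 28. Among all genes tested, the number with such a p ran from 497 of 14920 (SPs against LP day 1) to 2157 of 15030 (SPs against LP day 7) over the 6 comparisons.

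At LP day 1, the difference from SPs was small for all 3 genes relative to its error. The log2 fold change was 0.12 for LHB (SE 0.31, 95% interval -0.53 to 0.77), 0.12 for FSHB (SE 0.34, 95% interval -0.60 to 0.84), and 0.0617 for POMC (SE 0.42, 95% interval -0.82 to 0.94), each with an FDR of 1.00 in the edgeR test. As folds, these intervals ran from 0.695 to 1.70, from 0.660 to 1.79, and from 0.567 to 1.92. In this comparison 0% of the 14920 genes tested were DE and 0.221% had groups that did not overlap. A total of 497 genes had an unadjusted p under 0.05, and DESeq2 called 2 genes. The sign for the gonadotropins depended on LP day 1 samples 3 and 4. Without both, the log2 fold change was -0.40 for LHB and -0.35 for FSHB, with FDRs of 0.955 and 0.956.

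At LP day 7, LHB was lower than in every SP sample in 5 of 6 samples, and FSHB in 3 of 6. The log2 fold change of LHB was -0.56 (SE 0.22, 95% interval -1.02 to -0.10, FDR 0.250 in the edgeR test), a fold of 0.678. That of FSHB was -0.43 (SE 0.20, 95% interval -0.85 to -0.00737, FDR 0.340 in the edgeR test). Neither passed the threshold, in a comparison in which 0.266% of genes were DE and 2.04% had groups that did not overlap. LHB was above the SP median only in LP day 7 sample 3, and FSHB likewise. Without that sample, LHB passed with a log2 fold change of -0.82 (FDR 0.0468 in the edgeR test), the lowest FDR over its alternatives, which ran up to 0.582. Over SP samples 2, 3, and 5 alone, the log2 fold change was -0.39 for LHB (FDR 0.582 in the edgeR test) and -0.24 for FSHB (FDR 0.708 in the edgeR test). POMC had a log2 fold change of -0.0393 (SE 0.38, 95% interval -0.85 to 0.77), and its LP day 7 samples all lay within the SP range.

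At LP day 28, FSHB was lower than in every SP sample in 5 of 6 samples, and LHB in 3 of 6. All 6 LHB values were below the SP median. FSHB had the largest difference from SPs among the 3 genes, with a log2 fold change of -0.76 (SE 0.24, 95% interval -1.26 to -0.26, FDR 0.158 in the edgeR test), a fold of 0.591. The log2 fold change of LHB was -0.39 (SE 0.15, 95% interval -0.71 to -0.0835, FDR 0.244 in the edgeR test). Neither passed the threshold, in a comparison in which 0.67% of genes were DE and 1.98% had groups that did not overlap. LP day 28 sample 2 was the exception for FSHB, with 631 CPM. Without it FSHB passed with a log2 fold change of -1.02 (FDR 0.0225 in the edgeR test), and with any other single sample left out the FDR ran up to 0.298. Over SP samples 2, 3, and 5 alone, it was -0.56 for FSHB (FDR 0.403 in the edgeR test) and -0.22 for LHB (FDR 0.604 in the edgeR test). POMC again stood near 0, at -0.0849 (SE 0.34, 95% interval -0.80 to 0.63).

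Among the LP days, no difference of the 3 genes passed the test. Between LP day 1 and LP day 7, the log2 fold change was -0.68 for LHB (SE 0.32, FDR 0.882 in the edgeR test) and -0.55 for FSHB (SE 0.32, FDR 0.883 in the edgeR test). Both differences were smaller without LP day 1 samples 3 and 4, at -0.17 for LHB and -0.0835 for FSHB. A share of 0.0201% of genes was DE and 0.269% had groups that did not overlap. Between LP day 1 and LP day 28, it was -0.51 for LHB (SE 0.28, FDR 0.668 in the edgeR test) and -0.87 for FSHB (SE 0.34, 95% interval -1.57 to -0.17, FDR 0.510 in the edgeR test), where these shares were 0.216% and 0.526%. Without LP day 1 samples 3 and 4, these last values became -0.00114 and -0.41. Between LP day 7 and LP day 28, where the shares were 0.00672% and 0.363%, LHB stood at 0.17 and FSHB at -0.33, and the 95% intervals of both included 0. POMC had log2 fold changes of -0.11, -0.0379, and -0.14 from LP day 1 to 7, LP day 7 to 28, and LP day 1 to 28, respectively.

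**Figure D2:**
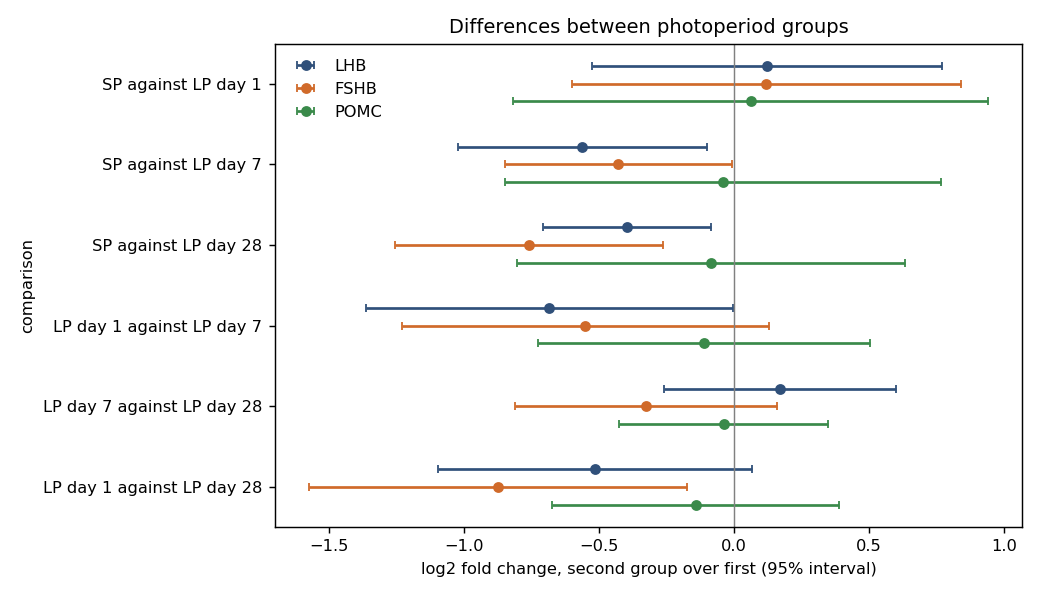
Log2 fold change of the second group over the first (points, edgeR) with its 95% interval (bars) for LHB, FSHB and POMC in the 6 comparisons, where the vertical line marks 0. The points for POMC lie between -0.14 and 0.0617, while LHB and FSHB lie below 0 at LP day 7 and LP day 28 against SPs, with no FDR under 0.05.

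Calls of the gonadotropins differed between tools. DESeq2 and limma with voom called none of the 3 genes in any comparison. The edgeR exact test, given 1 dispersion common to all genes, called FSHB at LP day 28 against SPs (FDR 7.80e-04), LHB at LP day 7 against LP day 1 (FDR 0.0190), and FSHB at LP day 28 against LP day 1 (FDR 4.53e-05). That test gives each gene the same spread, while the 3 genes varied more than most genes.

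Within subsets of the sample numbers, the lower FSHB at LP day 28 differed in size. Alignment numbers in the file headers repeat between samples 1 to 3 and samples 4 to 6, but not within either set. The split into these sets was inferred from that, and the numbers do not name a batch. FSHB differed from SPs by -0.40 (log2) among samples 1 to 3 and by -1.24 among samples 4 to 6, and by -1.02 and -0.55 among odd and even numbers. LHB at LP day 7 differed from SPs by -0.47 and -0.73 in the same sets and by -0.50 and -0.71 among odd and even numbers. POMC at LP day 28 changed sign between subsets, with -0.19 and 0.82 in these sets and 0.85 and -0.71 among odd and even numbers. No subset held more than 3 samples of a group, and these values were not tested.

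Ratios of counts within a sample do not depend on library scaling. The ratio of LHB to FSHB was 7.37, 8.35, 11.6, 8.78, and 5.79 in SP samples 1 to 5, and 13.3, 5.34, 9.44, 13.2, 17.0, and 11.04 in LP day 28 samples 1 to 6. LP day 28 held both the 3 highest ratios and the lowest ratio of the series. At LP day 7 all ratios lay between 5.81 and 8.39. The mean log2 ratio differed from SPs by 0.41 at LP day 28 (exact permutation p = 0.199, two-sided), by -0.20 at LP day 7 (exact permutation p = 0.292), and by 0.00821 at LP day 1.

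Relative to the alpha subunit, the mean of both beta subunits was lower at LP day 28, and neither difference passed the adjusted test. The ratio of FSHB to CGA was 0.117, 0.0521, 0.0433, 0.0671, and 0.0801 in SP samples 1 to 5, and 0.0283, 0.0692, 0.0464, 0.0352, 0.0292, and 0.0235 in LP day 28 samples 1 to 6. In 4 of 6 LP day 28 samples it was below every SP sample. The mean log2 ratio differed by -0.91 (fold 0.533, exact permutation p = 0.0281, adjusted p = 0.195 over 9 tests). For LHB to CGA the difference at LP day 28 was -0.49 (exact permutation p = 0.0433, adjusted p = 0.195), and at LP day 7 it was -0.34 (exact permutation p = 0.162). The smallest p that 5 against 6 samples allow is 0.00433. On SPs CGA itself stood at 8384 ± 892 CPM (SD, n = 5), beside 8955 ± 834 CPM (SD, n = 6) at LP day 28. CGA is made by PT thyrotrophs as well as by gonadotrophs.

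**Figure D3:**
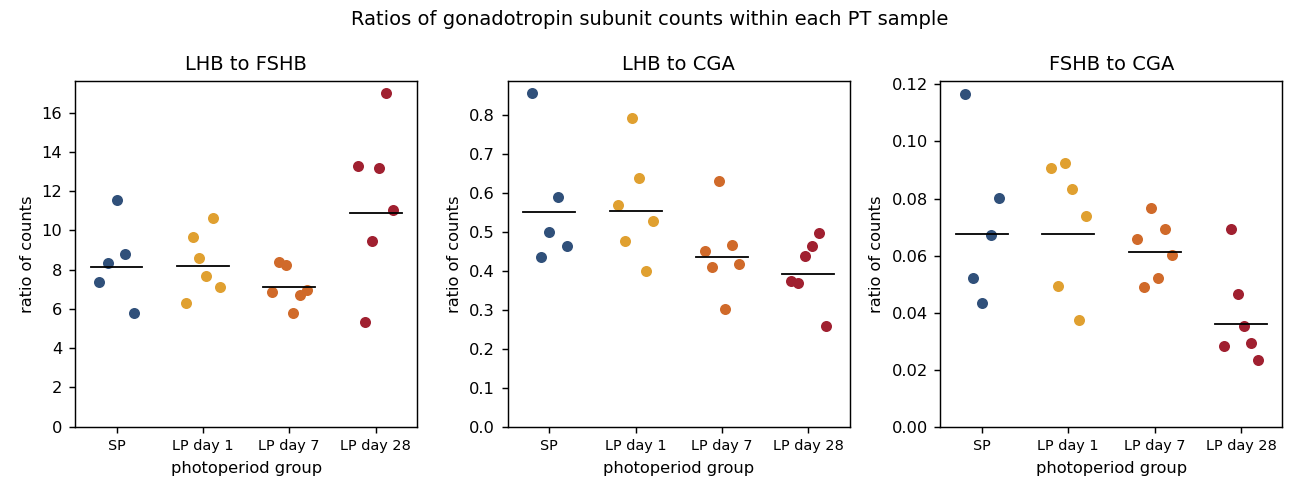
Ratio of counts in each sample (linear axes from 0) for LHB to FSHB, LHB to CGA, and FSHB to CGA in the 4 groups, with the geometric mean of a group as a line. The ratio of FSHB to CGA is below 0.0433, the lowest SP value, in 4 of 6 LP day 28 samples.

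Between samples, LHB and FSHB varied together. Over the 23 samples, Pearson's r of their log2 CPM was 0.80 (permutation p = 2.00e-05, adjusted p = 9.00e-05 over 9 pairs) and Spearman's rho was 0.67 (permutation p = 6.90e-04). It was 0.68 without the 2 samples farthest from the median LHB, 0.72 without LP day 1 samples 3 and 4, and 0.82 for deviations from group means. Within samples 1 to 3 it was 0.77, within samples 4 to 6 it was 0.80, and it was 0.81 and 0.80 for odd and even numbers. Within LP day 1 it was 0.97 and within LP day 7 it was 0.96 (exact permutation p = 0.00417 and 0.0125, adjusted p = 0.0563 and 0.0675 over 27 tests), whereas at LP day 28 it was 0.29 (exact permutation p = 0.528). The difference between these groups was not tested. Spearman's rho was 0.94 within LP day 1 and 0.83 within LP day 7 (exact permutation p = 0.0167 and 0.0583, adjusted p = 0.15 and 0.315). LP day 1 samples 3 and 4 had the highest LHB and FSHB of their group, as did LP day 7 sample 3 of its group. No relation within a group was computed without these samples.

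LHB also followed CGA. Pearson's r was 0.76 over the 23 samples (permutation p = 2.00e-05, adjusted p = 9.00e-05), Spearman's rho was 0.70 (permutation p = 3.50e-04), and r was 0.64 without the 2 farthest samples. It was 0.62 and 0.85 among samples 1 to 3 and 4 to 6, and 0.85 and 0.80 among odd and even numbers. Within LP day 1, LP day 7, and LP day 28 it was 0.97, 0.81, and 0.15. For FSHB and CGA, r was 0.53 (permutation p = 0.00920, adjusted p = 0.0207), but rho was 0.35 (adjusted p = 0.230). For deviations from group means r was 0.70 (permutation p = 0.00814, adjusted p = 0.0183). Over the 23 samples the relation depended on a few of them, since r was 0.23 without the 2 farthest samples, 0.33 without LP day 1 sample 5, and 0.47 without LP day 1 sample 4, and none of these passed. It was 0.23 among samples 1 to 3 and 0.67 among samples 4 to 6.

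FSHB and PRL moved in opposite directions. Pearson's r was -0.67 (permutation p = 5.10e-04, adjusted p = 0.00153) and Spearman's rho was -0.72 (permutation p = 2.10e-04) over the 23 samples. It was -0.66 without the 2 farthest samples, -0.59 without LP day 1 samples 3 and 4, and -0.62 for deviations from group means. It was -0.80 among samples 1 to 3 and -0.73 among samples 4 to 6, and -0.67 and -0.71 among odd and even numbers. With scaling by library size alone it was -0.76. PRL is a large share of each library, and the part of that share in the relation was not tested. Within LP day 1, LP day 7, and LP day 28, r was -0.79, -0.14, and -0.57, and none passed after adjustment. For LHB and PRL, r was -0.32 (permutation p = 0.140) and did not pass, whereas with scaling by library size alone it was -0.48 and passed (adjusted p = 0.0373).

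POMC had no relation with these genes that passed the test. Pearson's r was -0.22 with LHB (permutation p = 0.317), -0.33 with FSHB (permutation p = 0.121), and -0.25 with CGA (permutation p = 0.236). With PRL it was 0.38 (permutation p = 0.0703, adjusted p = 0.127). LP day 1 sample 5 stood at the end of both axes, with the highest POMC and the lowest LHB, FSHB, and CGA, at 3886 CPM, of all 23 samples. Its GNRHR, CHGB, and PCSK1 were also the lowest of the series, at 13.1, 1751, and 109 CPM. The same sample had the highest level of the series for the folliculostellate markers GFAP (832 CPM) and S100B (180 CPM) and for CARTPT (185 CPM) and KISS1 (45.5 CPM), which are on the list of median eminence and arcuate nucleus markers. The other paired genes of these lists were not highest in it. AGRP was 75.7 CPM, NPY 88.5 CPM, and DIO2 20.4 CPM, below series maxima of 93.8, 114, and 31.0 CPM. The folliculostellate marker VIM was highest on SPs, at 1315 CPM. The part of these cells in the values of LP day 1 sample 5 was not tested. Without the 2 samples farthest from the median LHB, r of LHB and POMC was -0.00168.

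**Figure D4:**
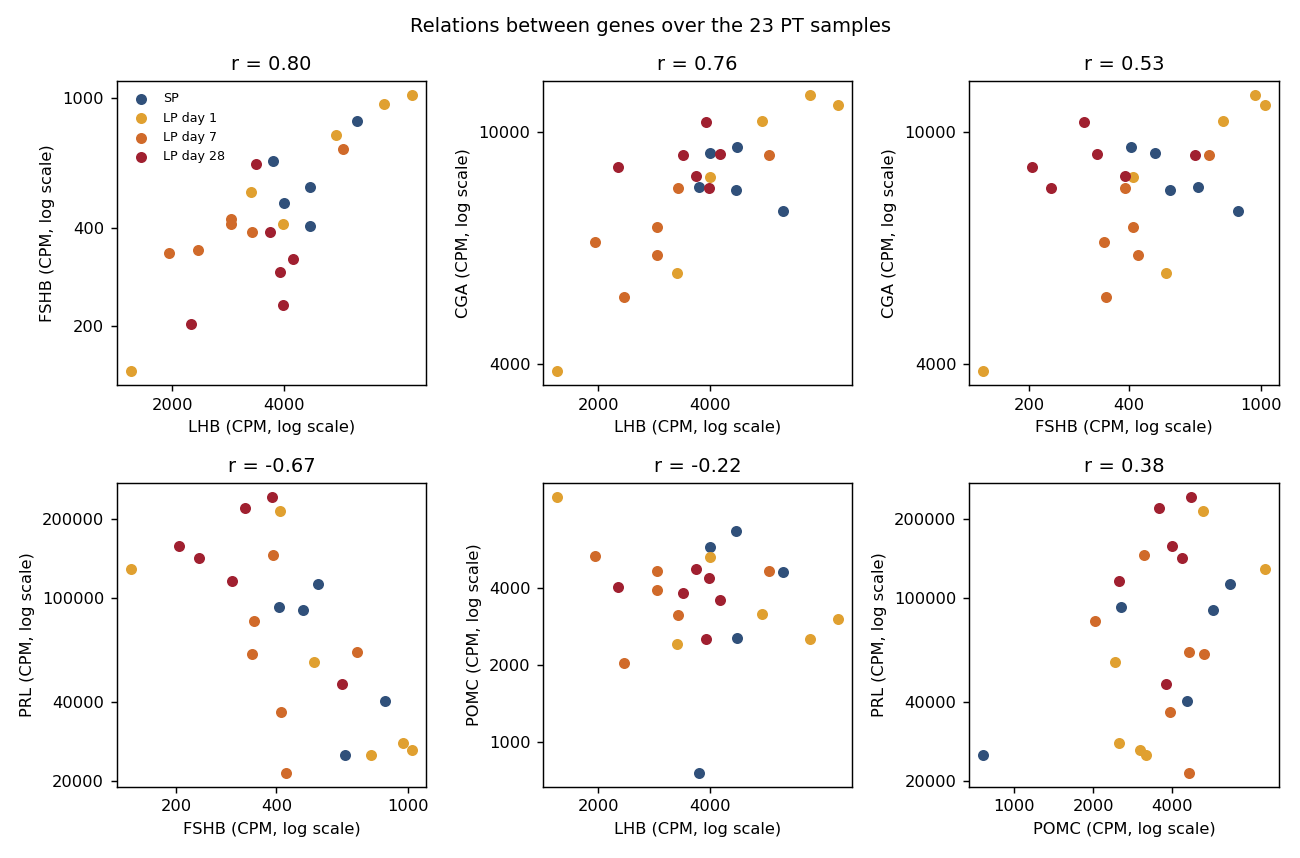
CPM on log axes for 6 pairs of genes, 1 point per PT sample colored by group, with Pearson's r of log2 CPM over 23 samples above each panel. LHB and FSHB rise together (r = 0.80), FSHB and PRL run opposite (r = -0.67), and the POMC panels show LP day 1 sample 5 and SP sample 5 at the ends of the POMC axis.

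The genes whose pattern was most like each member were ranked by r of log2 CPM over the 23 samples, among 1120 genes with a symbol. Symbols came from the study's tables of differentially expressed genes and of its heatmap, so the named genes were selected by results of the study. Genes outside these tables could not be named. These ranks are descriptions, and the values of a sample share library, depth, and scaling. LHB was most like CHGB (r = 0.82), a granin of secretory granules, followed by FSHB (0.80), CGA (0.76), the coagulation factor gene F10 (0.72), and the ribosomal protein gene RPL13 (0.70). FSHB was most like LHB, followed by the calcium-binding protein gene S100A2 (0.72), the lens filament gene BFSP2 (0.72), the sphingosine phosphate receptor gene S1PR3 (0.61), and GNRHR (0.61). LHB had the same r with GNRHR to 2 decimals, 0.61, which placed it 149 among 15652 genes with or without a symbol. The 5 genes most like POMC were others. They were the serine protease gene TMPRSS6 (0.74), PCSK2 (0.72), TBX19 (0.69), SYNDIG1L (0.67), and the copper chaperone gene CCS (0.66). Among all 15652 genes, the 5 for LHB ranked 8, 10, 22, 39, and 49. Those for FSHB ranked 5, 26, 28, 98, and 104, and those for POMC 4, 5, 11, 14, and 16.

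GNRHR itself had nearly equal group means and a wide spread within them. Mean GNRHR was 61.3 CPM on SPs (SD 17.8, n = 5). After 1, 7, and 28 days of LPs (n = 6 each) it was 63.6 CPM (SD 27.4), 63.3 CPM (SD 23.5), and 61.5 CPM (SD 6.82). Its highest value, 107 CPM, was LP day 7 sample 3, the sample with the highest LHB and FSHB of its group. Groups accounted for 1.14% of the variance of GNRHR.

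The 2 proteases of POMC had r of opposite sign with it. PCSK2, positive with POMC as given above, was negative with LHB (r = -0.58) and FSHB (r = -0.58). PCSK1 had r = -0.39 with POMC. PAX7 had r = 0.58 with POMC, at 1 to 39 counts in a sample. In SP sample 5, where POMC was lowest, PCSK2 was 38.9 CPM and TBX19 12.7 CPM, compared with 251 CPM and 44.7 CPM in SP sample 4, where POMC was highest on SPs. TBX19 and GH1, at 4578 CPM, were lowest of the series in SP sample 5. Of the pars intermedia markers, 2 of 3 could be paired, and their summed level ranged from 39.8 to 263 CPM on SPs, 32.6 to 230 CPM at LP day 1, 86.1 to 166 CPM at LP day 7, and 90.5 to 205 CPM at LP day 28. Neither marker was at 0 in any sample. The pars distalis genes GH1 and POU1F1, the growth hormone gene and the factor of lactotrophs, somatotrophs, and thyrotrophs, also had positive r with POMC, 0.60 and 0.53. The part of these markers in the spread of POMC was not tested.

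**Figure D5:**
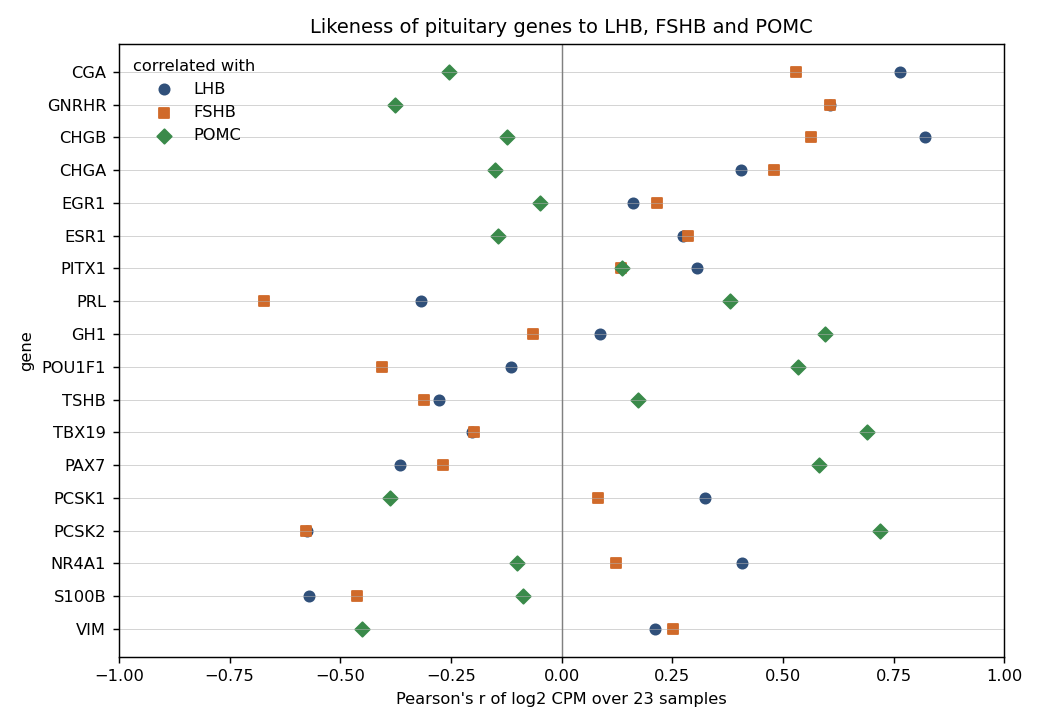
Pearson's r of log2 CPM over 23 samples between each listed pituitary gene (rows) and LHB (circles), FSHB (squares), and POMC (diamonds). CGA, GNRHR, and CHGB lie to the right for LHB and FSHB and to the left for POMC, whereas PCSK2 lies at 0.72 for POMC and -0.58 for LHB and FSHB; coincident symbols overlie each other, as for GNRHR.

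The other genes of these pathways were described through lists, of which only part could be paired with a symbol. Of 14 gonadotroph genes, 4 were paired (CGA, GNRHR, EGR1, and PITX1), and none passed the test in either direction in any of the 6 comparisons. At LP day 28 against SPs, EGR1, the immediate early gene that mediates GnRH action on LHB, had a log2 fold change of 0.66 (SE 0.26, FDR 0.253 in the edgeR test), CGA 0.0921, and GNRHR 0.00123. At LP day 7, CGA stood at -0.27 (SE 0.12, FDR 0.322 in the edgeR test). Of 14 feedback genes, 3 were paired (FST, the estrogen receptor gene ESR1, and the progesterone receptor gene PGR), and none passed. ESR1 had a log2 fold change of 0.70 at LP day 7 (SE 0.25, FDR 0.219 in the edgeR test). FST stayed at or below 3.70 CPM, and PGR was at 0 in 2 samples.

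Of 12 corticotroph and melanotroph genes, 5 were paired (TBX19, PAX7, PITX1, NR4A1, and NR4A2), and of 9 prohormone processing genes 2 were paired (PCSK1 and PCSK2). None of these passed in any comparison. At LP day 28 against SPs the log2 fold change was 0.43 for TBX19 (SE 0.24, FDR 0.447 in the edgeR test) and 0.76 for PCSK1 (SE 0.28, FDR 0.236 in the edgeR test). PCSK1 was 1053 CPM in LP day 28 sample 1 and 201 to 530 CPM in the others of that group.

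Granins, the cargo proteins of the granules that also store the gonadotropins, were paired for 4 of 6 genes, of which CHGA and VGF passed in a comparison. CHGA, which is also on the list of PT thyrotroph markers, fell at LP day 7 (log2 fold change -1.14, FDR 0.00215 in the edgeR test) and at LP day 28 (log2 fold change -1.69, FDR 1.28e-05 in the edgeR test). VGF rose at LP day 28 (log2 fold change 1.33, SE 0.27, FDR 0.0293 in the edgeR test). CHGB, the named gene most like LHB, had log2 fold changes of -0.50 at LP day 7 (SE 0.11, FDR 0.0665 in the edgeR test) and -0.33 at LP day 28 (SE 0.11, FDR 0.215 in the edgeR test), beside -0.56 and -0.39 for LHB. These values share the SP samples.

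Other pars distalis hormones also varied widely, with an 11.3-fold range between samples for PRL. Of 8 genes of this list 5 were paired, and TSHB, which is also on the list of PT thyrotroph markers, was the only one that passed, with a rise from LP day 1 to LP day 28 (log2 fold change 2.25, FDR 5.51e-07 in the edgeR test). PRL had a log2 fold change of 1.09 at LP day 28 against SPs (SE 0.37, FDR 0.192 in the edgeR test), opposite in sign to FSHB. The summed level of the 4 paired pars distalis markers ranged from 29909 to 129111 CPM on SPs, 37214 to 261522 CPM at LP day 1, 38633 to 169961 CPM at LP day 7, and 66857 to 263974 CPM at LP day 28. None of the 4 was at 0 in any sample. With GH1 as a covariate, the log2 fold change of FSHB at LP day 28 was -0.75 (FDR 0.180 in the edgeR test), and that of LHB at LP day 7 was -0.75 (FDR 0.124 in the edgeR test).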

How the data were processed

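The authors deposited raw counts of reads per Ensembl sheep gene for each PT sample. The submitters' processing notes list Bowtie and HTSeq with the Oar_v3.1 build, whereas the file headers look like featureCounts output on TopHat alignment files. Which program counted was not settled, and strand and versions were not given in the sources used here. Groups came from the labels, and all 5 SP samples were used. The study's text names no SP samples for its comparisons, and it may have used fewer, so samples 2, 3, and 5 alone were an alternative. Symbols were paired with identifiers through the study's supplementary tables of its DE genes and of its heatmap. This gave 1259 identifiers, of which 29 symbols had more than 1, none of them named here. List genes outside these tables could not be paired. Total counts were 307952 to 4413929 per sample, reads carried no molecular identifiers, and counting errors cover counting only.

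The tools were edgeR 4.0.16 and R 4.3.3. Each pair of groups was TMM normalized, genes above 1 CPM in a number of samples no lower than the size of the smaller group were kept, and quasi-likelihood tests were run with Benjamini-Hochberg adjustment over all genes tested. SE is the absolute log2 fold change over the square root of F. Correlations used log2 CPM (prior count 2) and 100000 permutations, or exact permutations for 6 samples, with SciPy 1.17.1 in Python 3.11.15, and ratios had 0.5 counts added. Alternatives used DESeq2 1.42.0, limma 3.58.1, other scaling, filters, covariates, and left-out samples. The setting of samples 1 to 3 or 4 to 6 and the removal of LP day 1 samples 3 and 4 together or of single samples from the correlations were chosen after seeing the data. The fits were tested on simulated data. The members and lists were chosen with earlier results of these data known.

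Genes named are the 3 members, paired list genes that pass a test or otherwise up to 6 per list by mean CPM, and the 5 genes most like each member. CHGB, GH1, and POU1F1 are list genes. No genome of this build was used here, so no positions or sequences are given. Gene lengths were not used, so levels are not compared between genes.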

Additional observations from a re-analysis of the deposited data

Results flagged for a closer look

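A single sample stood apart from the others of its group for both gonadotropin genes. LHB in LP day 7 sample 3 was 5767 CPM, and the next highest LP day 7 sample was 3277 CPM, a gap of 0.654 of the range of the group. FSHB in the same sample was 699 CPM with a next highest value of 427 CPM, a gap of 0.750 of the range. Both gaps exceeded the 95% critical value of Dixon for 6 samples. A total of 24 groups were screened, and chance flags about 1 in 20. POMC in that sample, 4661 CPM, lay inside the range of its group.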

How the results depend on the processing

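Among alternatives other than single left-out samples, 184 values of the 3 genes kept their sign and their side of the threshold, 20 changed sign, and 3 passed the threshold. For LHB at LP day 1 against SPs the log2 fold change turned to -0.13 with sample number as a replicate block, -0.0241 with LP day 1 samples 3 and 4 summed, and -0.40 without both, and for FSHB to -0.16, -0.0233, and -0.35. POMC at LP day 7 against SPs turned to 0.0315 with scaling by library size, 0.30 with voom, 0.15 with the block, 0.0147 with number parity, and 0.38 over SP samples 2, 3, and 5. At LP day 28 against SPs it turned to 0.22 with voom, 0.14 with the block, 0.00951 with GH1 as a covariate, and 0.34 over SP samples 2, 3, and 5. Between LP days, POMC turned to 0.11 with voom (LP day 1 to 7), 0.00363 with the block and 0.20 with GH1 (LP day 7 to 28), and 0.0514 with voom and 0.0122 with the block (LP day 1 to 28). The exact test with a common dispersion brought 3 values past the threshold, -0.76 for FSHB at LP day 28 against SPs, -0.68 for LHB between LP days 1 and 7, and -0.88 for FSHB between LP days 1 and 28. The cause of these turns was not tested.

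With each sample left out in turn, LHB at LP day 1 against SPs ran from -0.11 to 0.31, at LP day 7 from -0.82 to -0.44, and at LP day 28 from -0.47 to -0.27. FSHB ran from -0.0829 to 0.33 at LP day 1, from -0.61 to -0.26 at LP day 7, and from -1.02 to -0.58 at LP day 28. POMC ran from -0.31 to 0.31, from -0.32 to 0.20, and from -0.35 to 0.16 on the same days, from -0.23 to 0.28 between LP days 1 and 7, from -0.17 to 0.0648 between LP days 7 and 28, and from -0.26 to 0.23 between LP days 1 and 28.

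For the relations, LHB with PRL passed with scaling by library size (r = -0.48, adjusted p = 0.0373). FSHB with CGA no longer passed without LP day 1 sample 4 (0.47), without the 2 farthest samples (0.23), by Spearman (0.35), without LP day 1 samples 3 and 4 (0.40), or without LP day 1 sample 5 (0.33). Among ratios at LP day 1, LHB to FSHB turned to -0.00557 over SP samples 2, 3, and 5, LHB to CGA to -0.17 without LP day 1 samples 3 and 4, and FSHB to CGA to 0.000783 with a pseudocount of 2 and 0.26 over SP samples 2, 3, and 5. FSHB to CGA at LP day 7 turned to 0.12 over those SP samples. With single samples left out, these 4 ratios ran from -0.12 to 0.13, from -0.0963 to 0.17, from -0.16 to 0.20, and from -0.30 to 0.0567.

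Sample numbers gave no clear pairing of the samples, though correlations in mixed tissue cannot exclude one. Deviations of same-numbered samples correlated with r from -0.17 to 0.26 (mean 0.0150 over 33 pairs, 5 above 0.1). In 13 of 66 cases the best match in another group had the same number, where each match was 1 of the 5 or 6 samples of that group. Sample number as a replicate block moved the DE genes from 40 to 178 at LP day 7 and from 100 to 41 at LP day 28 against SPs, and changed no call of the 3 genes. With odd or even sample number as a covariate, the DE genes were 334 and 154, and again no call of the 3 genes changed. The number of DE genes ran from 0 to 68, 6 to 492, and 41 to 454 at LP days 1, 7, and 28 against SPs, and from 1 to 150, 1 to 251, and 16 to 266 between LP days 1 and 7, 7 and 28, and 1 and 28. With single samples left out the SP counts ran from 0 to 4, 7 to 113, and 41 to 110. At LP day 28 against SPs, the 95% intervals covered folds of 0.613 to 0.944 for LHB, 0.419 to 0.835 for FSHB, and 0.573 to 1.55 for POMC, and counting error was small beside this spread.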

Other observations

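Cells of neighboring tissue were followed through further marker lists. Of 5 folliculostellate markers 3 were paired (S100B, GFAP, and VIM), with summed levels of 887 to 1877 CPM on SPs, 719 to 1987 CPM at LP day 1, 841 to 1471 CPM at LP day 7, and 1023 to 1345 CPM at LP day 28. Over the 23 samples S100B, GFAP, and VIM had r of -0.57, -0.45, and 0.21 with LHB, of -0.46, -0.37, and 0.25 with FSHB, and of -0.0867, -0.24, and -0.45 with POMC. Of 13 markers of the median eminence and arcuate nucleus 5 were paired (AGRP, NPY, CARTPT, KISS1, and DIO2), with sums of 76.3 to 299 CPM on SPs, 53.4 to 415 CPM at LP day 1, 133 to 260 CPM at LP day 7, and 62.0 to 255 CPM at LP day 28, and none at 0. PTPRC, the only paired blood marker of 4, ranged from 8.80 to 91.7 CPM. None of these lists had a gene that passed in any comparison. No endothelial or pars nervosa marker could be paired.

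Of the PT thyrotroph markers, EYA3 rose at LP day 28 against SPs (log2 fold change 2.57, FDR 0.0481 in the edgeR test). Its level was 407, 123, and 471 CPM in the odd-numbered LP day 28 samples and 37.6, 58.5, and 46.8 CPM in the even-numbered ones, beside at most 37.1 CPM on SPs. Within LP day 28, POMC and CGA had r = -0.95 (exact permutation p = 0.00972, adjusted p = 0.0675 over 27 tests), compared with -0.66 within LP day 1 and 0.46 within LP day 7. The difference between these groups was not tested.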
